A study of Caenorhabditis elegans with 36 samples.

Results

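Larvae of the nematode Caenorhabditis elegans carrying mutations in both daf-2 and daf-16 were compared after ultraviolet (UV) irradiation and under starvation. The comparison holds 7 of the 36 arrays of the study, 3 of UV-treated daf-2;daf-16 larvae and 4 of starved daf-2;daf-16 larvae, taken by the genotype and treatment in their labels. The study measured whole-larva RNA on 1-colour Affymetrix expression arrays in 4 strains (the double mutant, the single mutants daf-2 and daf-16, and wild-type N2) and 3 conditions (UV, starvation and no treatment), with 2 to 4 arrays in each of its 12 groups, and its title asks how DAF-16 and EGL-27 act in larval growth under lasting DNA damage. Synchronized larvae received food for 4 h and were harvested 6 h after irradiation. All samples carry this one protocol, starved ones too, so their feeding and handling cannot be read from it; the labels name neither mutant alleles nor a UV dose. All 7 arrays share the 2 mutations, so no array of the comparison has both genes in wild-type form. The 3 arrays of untreated daf-2;daf-16 larvae give a further condition, and the same treatments in daf-2 (3 and 3 arrays), daf-16 (3 and 2) and N2 larvae (3 and 3) show where the double mutant differs. Whether replicate arrays stand for separate cultures is not in the labels, so a p-value covers the spread between these samples alone, which may be technical, and the small number of arrays limits the precision.

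DAF-2 is the insulin/IGF-1 receptor of the worm, and DAF-16 is the FoxO transcription factor that it holds in check; when receptor signalling is low, DAF-16 enters the nucleus and turns on genes for stress resistance and dormancy. A daf-2;daf-16 double mutant combines reduced receptor signalling with a defective DAF-16. Newly hatched larvae without food do not start postembryonic development, switch to the use of stored fat and recycle cell contents by autophagy, whereas fed larvae divide their blast cells and build a new cuticle at every molt. UV light leaves pyrimidine dimers that stall RNA polymerases and replication forks and are removed by nucleotide excision repair.

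Signals are deposited log2 values, differences are UV minus starvation on that log2 scale with their standard error (SE), and adjusted p-values come from limma with the Benjamini-Hochberg method over 22548 probe sets. A gene is called higher or lower at an adjusted p under 0.05, and where a gene has several probe sets the brightest stands for it. Of 17118 genes, 4268 (24.9%) were called higher after UV than in starvation and 4932 (28.8%) lower, and the median difference of all genes was 0.03. A difference of at least 2-fold was reached by 1215 genes upward (7.1%) and by 1603 downward (9.36%). The median size of a difference, regardless of sign, was 0.29, and for 58% of probe sets the UV arrays and the starved arrays did not overlap. Against untreated larvae of the strain, UV gave 1303 higher genes (7.61%) and 1340 lower (7.83%), while starvation gave 4844 higher (28.3%) and 4627 lower (27%). The count for UV against untreated larvae depended on the fit: of probe sets, 3293 were called (48.1% of them higher), against 1715 (59.2%) when only those groups were fitted and 5477 (41.2%) with array weights. Both comparisons share the 3 untreated arrays, so their values stand side by side below and no overlap between them is read as a result.

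The arrays did not all lie equally close together. The SD of the difference between 2 arrays over all probe sets was 0.17 for UV replicates 2 and 3 but 0.22 and 0.24 for pairs with UV replicate 1, and 0.15 to 0.16 among starvation replicates 1 to 3 but 0.25 to 0.26 for pairs with starvation replicate 4. Among untreated arrays, pairs with replicate 1 differed by 0.36, against 0.15 for the other pair. On the first principal component of all 36 arrays, which held 65.5% of the variance, the UV arrays of the double mutant lay at -18.2, -38.2 and -35.6, the starved arrays at 82.1 to 89.2 and the untreated arrays at -52.7, -42.6 and -42.1. In the other strains that SD was 0.167 to 0.394 between arrays of one group. For named genes whose fold moved by over 1.5 times without UV replicate 1 or starvation replicate 4, both values are given. Of the 169 named genes, 4 were no longer called without UV replicate 1 and 6 without UV replicate 3, which did not stand apart. Leaving out starvation replicate 1, 3 or 4 lost 2 calls each, and leaving out starvation replicate 2 lost 1. Such lost calls and smaller shifts are given for some genes only. The 3' minus 5' signal of the ubiquitin control, a sign of RNA quality, was 4.928 to 4.958 after UV, against 4.994 to 5.045 in starvation, with no overlap, while the ranges of the Gapdh and actin controls overlapped; the part of RNA quality in the results was not tested.

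The mutated genes themselves were measured first. Signals of daf-16 were 8.65, 8.56 and 8.43 after UV, against 9.13, 9.08, 9.20 and 9.18 in starvation, and those of daf-2 5.01, 4.88 and 4.83 after UV, against 5.39, 5.31, 5.72 and 5.69 in starvation. For both genes the starved arrays all lay above the UV arrays, with differences of -0.60 ± 0.09 for daf-16 (adjusted p = 1.3e-06) and -0.62 ± 0.14 for daf-2 (adjusted p = 2.1e-04). The alleles are unnamed, so these probe sets may lie outside the altered sequence and do not check the genotype. Of the 4 daf-16 probe sets, 2 had group means that separated the daf-16-mutant strains from the others in both conditions, in opposite directions. The dimmer one was lower in the mutants, with a mean signal of 3.55 after UV, against 3.43 in starvation, in daf-2;daf-16 and 3.61 against 3.52 in daf-16, but 4.52 against 4.59 in daf-2 and 4.32 against 4.57 in N2. The brighter one was higher in the mutants, with 7.88 after UV, against 8.46 in starvation, in daf-2;daf-16 and 8.47 against 8.75 in daf-16, but 7.41 against 7.94 in daf-2 and 7.65 against 8.18 in N2. Transcripts of egl-27, which encodes the GATA-type factor of the study's title, had signals of 9.30, 9.11 and 9.03 after UV, against 10.06, 10.11, 10.12 and 10.10 in starvation. Those groups did not overlap, and the difference was -0.95 ± 0.08 (adjusted p = 4.8e-12). UV minus untreated did not pass the test (adjusted p = 0.99), while starvation minus untreated was 0.95 ± 0.08 (adjusted p = 4.2e-12).

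**Figure D1:**
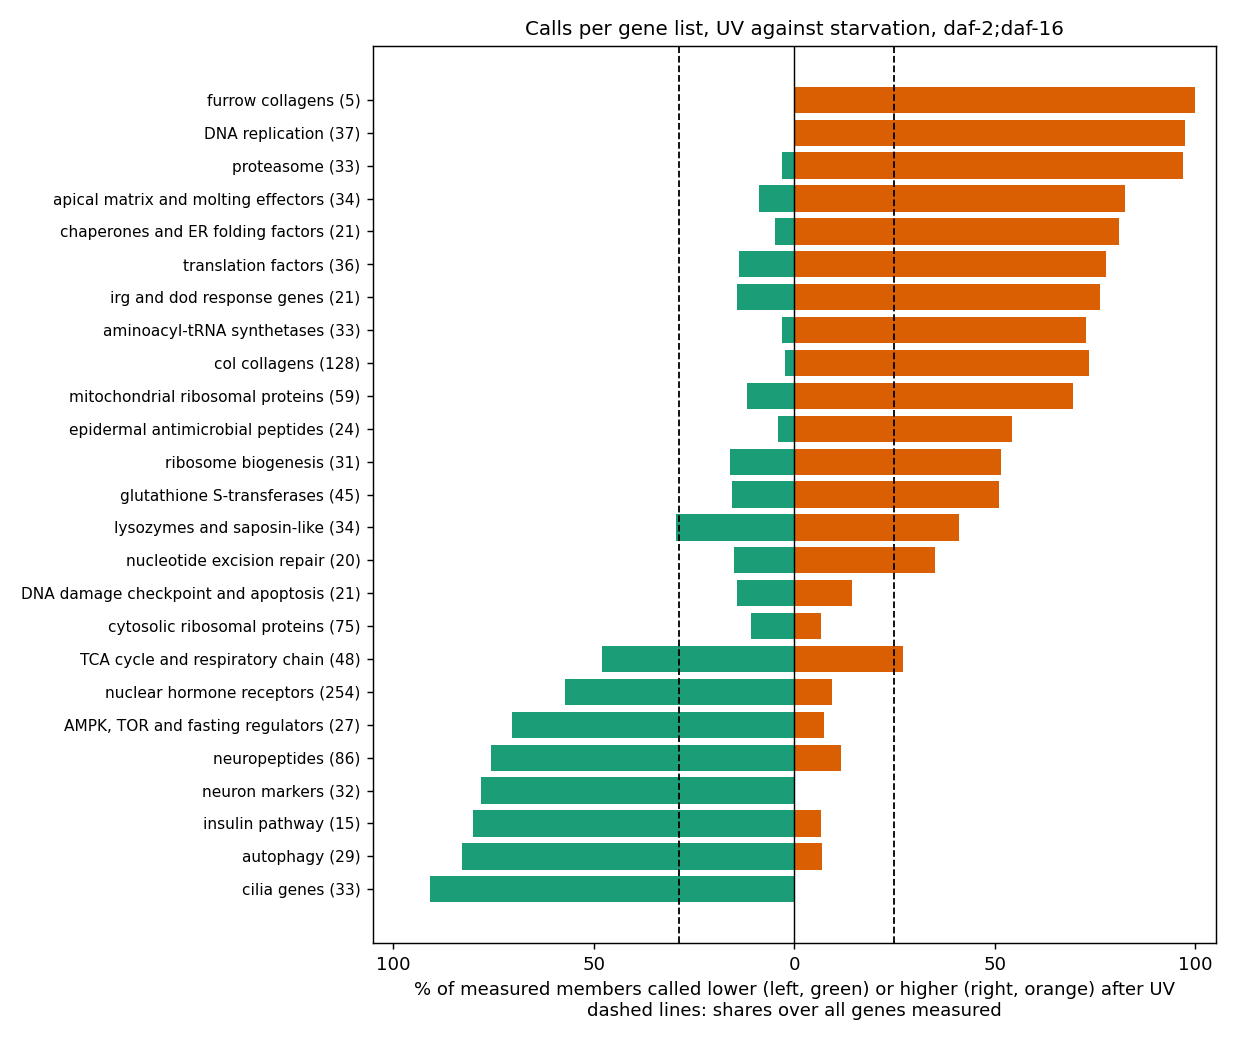
Share of the measured members of 25 gene lists called higher (orange, right) or lower (green, left) after UV than in starvation in daf-2;daf-16 larvae, by limma at an adjusted p under 0.05, with the number of measured members in brackets. The dashed lines mark all genes (24.9% higher and 28.8% lower). DNA replication genes, furrow collagens and proteasome subunits lie far to the right, and cilia genes, autophagy genes and neuron markers far to the left.

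Genes that build and remodel the cuticle were among those furthest above starvation after UV. Of 34 measured genes of the apical extracellular matrix and of molting, 28 were called higher (24.9% of all genes were), 3 lower (28.8% of all genes) and 3 neither, with a median difference of 3.03, against 0.03 over all genes. The probe sets of 15 of the 34 are marked as shared with other transcripts. Signals of sym-1, a leucine-rich repeat protein of the embryonic and larval matrix, were 11.28, 11.53 and 11.23 after UV, against 4.44, 3.96, 4.14 and 4.24 in starvation. The gap between the groups was more than 6 log2 units, and the difference was 7.15 ± 0.21, a 142-fold higher level after UV (adjusted p = 1.8e-23). The Kunitz-domain protease inhibitor mlt-11, which is required to shed the old cuticle, had 10.52, 11.07 and 10.74 after UV, against 3.88, 4.16, 3.89 and 4.06 in starvation, a difference of 6.78 ± 0.32. The zona pellucida proteins of the pre-cuticle, a temporary matrix under the new cuticle, were among the largest differences as well: noah-2 had 11.45, 11.67 and 11.35 after UV, against 4.79, 5.16, 5.13 and 5.21 in starvation, and noah-1 differed by 6.10 ± 0.24. The deposited table has no detection calls, so whether the lowest signals, such as those of starved larvae here, are above background was not tested.

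Other pre-cuticle genes were also higher after UV. Groups without overlap were a condition for entering the 15 largest rises, so that trait is no result for any gene of that set. The lipocalins lpr-3, lpr-4 and lpr-5, which carry lipids into this matrix, differed by 6.32 ± 0.31, 5.78 ± 0.35 and 5.92 ± 0.32. The ACE-like protein acn-1, needed for molting although it lacks peptidase residues, differed by 6.02 ± 0.23, the molting gene mlt-8 by 5.81 ± 0.23, and dbd-2, the largest difference of any gene named here, by 7.46 ± 0.33. The astacin protease nas-37, which digests the old cuticle, had 7.79, 8.09 and 7.58 after UV, against 3.99, 4.24, 4.23 and 3.96 in starvation, a difference of 3.71 ± 0.29. The exceptions included mlt-7, a peroxidase that cross-links collagen, with 8.87, 8.63 and 8.70 after UV, against 9.70, 9.56, 9.68 and 9.67 in starvation. Its groups did not overlap, and it was lower after UV by a difference of -0.92 ± 0.15 (adjusted p = 2.7e-06).

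Untreated larvae place these differences. The sym-1 gene read 12.28, 11.98 and 12.03 in the untreated arrays, so UV minus untreated was -0.75 ± 0.22 (adjusted p = 0.018), against -7.90 ± 0.21 for starvation minus untreated (adjusted p = 9.7e-25). Over the 34 genes, 2 were called higher and 4 lower in UV against untreated larvae (7.61% and 7.83% of all genes), with a median of -0.23. In starvation against untreated larvae, 3 were higher and 28 lower (28.3% and 27% of all genes), with a median of -3.76. Untreated replicate 1 was above both other untreated arrays for many of these genes (mlt-11 read 11.71, 11.27 and 11.19).

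**Figure D2:**
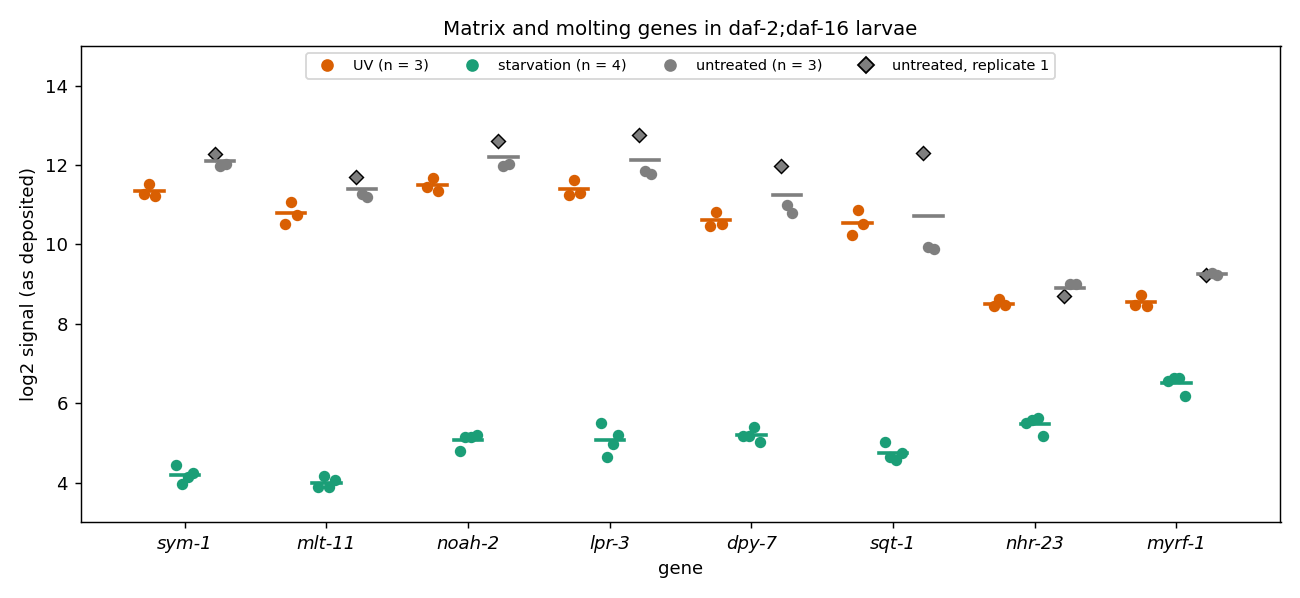
Log2 signal of 8 matrix and molting genes on each daf-2;daf-16 array (points, UV left, then starvation and untreated; bars are group means, and the diamond is untreated replicate 1). For every gene shown, all UV arrays lie above all starved arrays, which was a condition of choice for those among the 15 largest rises. The narrowest gap is that of myrf-1, and sym-1, mlt-11 and noah-2 have gaps of more than 6 log2 units.

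Transcription factors that time the molting cycle differed less than the matrix genes, mostly in the same direction. The nuclear receptor nhr-23, a driver of every larval molt, had 8.44, 8.63 and 8.47 after UV, against 5.49, 5.58, 5.63 and 5.18 in starvation, and the difference was 3.04 ± 0.11 (adjusted p = 1.2e-20). The myrf-1 gene, a membrane-bound factor that promotes larval progression, had 8.48, 8.73 and 8.44 after UV, against 6.57, 6.64, 6.64 and 6.17 in starvation, a difference of 2.05 ± 0.12. The lin-42 gene, the worm's period homolog, and blmp-1, a zinc finger factor that opens chromatin at cycling genes, differed by 1.56 ± 0.21 and 1.28 ± 0.14. Neither gene's groups overlapped. Among 13 such regulators, 9 were called higher and 2 lower, with a median of 0.45; the NIMA-type kinase gene nekl-2 was one of those lower after UV, by a difference of -0.73 ± 0.10.

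Collagens, the bulk of the cuticle, were mostly higher after UV. All 5 measured furrow collagens, which form the ring-shaped grooves of the cuticle, were called higher, with differences between 4.597 and 5.41. The dpy-7 gene read 10.47, 10.83 and 10.51 after UV, against 5.18, 5.18, 5.40 and 5.01 in starvation, a 42.5-fold higher level (difference 5.41 ± 0.29, adjusted p = 7.3e-17). The body-shape collagens sqt-1 and dpy-5 differed by 5.80 ± 0.42 and 5.61 ± 0.42. Of 128 collagens named col, 94 were higher and 3 lower, a share of 73.4% higher, with a median of 0.56. Their range ran from -1.74 for col-118, whose signals were 8.07, 7.73 and 7.84 after UV, against 9.51, 9.68, 9.58 and 9.70 in starvation, to 5.29 for col-149, whose signals were 12.24, 12.40 and 12.31 after UV, against 7.13, 7.103, 7.21 and 6.65 in starvation. The groups were apart for both, in opposite directions, so the collagens did not share one direction. The difference of col-90, another of the family, was 5.04 ± 0.46 (adjusted p = 3.0e-11). Many collagens are near copies of each other, and 51 of these 128 are represented by probe sets marked as shared.

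Secreted hedgehog-related proteins and patched-related receptors, which in worms serve matrix assembly and molting, had a wide spread. Of 80 measured, 31 were higher and 9 lower after UV, with a median of 0.25. The hedgehog-related wrt-10 reached 6.49 ± 0.34 and wrt-1 4.78 ± 0.42, and the patched-related ptr-4 5.10 ± 0.26. The ptr-4 gene signals were 9.59, 9.99 and 9.52 after UV, against 4.41, 5.19, 4.30 and 4.51 in starvation. Astacin proteases as a family had 8 of 33 higher and 6 lower, shares near or below those of all genes.

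Markers of tissues and cell types were compared in the whole larvae. In bulk RNA, fewer cells of a type and less RNA per cell cannot be told apart. The summed signal of 14 hypodermis markers, on a log2 scale, was 14.44 to 14.58 after UV, against 13.38 to 13.82 in starvation. That of 18 intestine markers was 15.48 to 15.54 after UV and 14.87 to 15.10 in starvation. For 24 muscle markers it was 16.18 to 16.34 after UV and 16.51 to 16.69 in starvation, and for 32 neuron markers 13.40 to 13.68 after UV and 14.65 to 14.74 in starvation. Each of these ranges was separate between the conditions, hypodermis and intestine being higher and muscle and neurons lower after UV; the part of tissue composition in the results was not tested. Of these lists, 8 of 14 hypodermis genes were called higher and 2 lower, 11 of 18 intestine genes higher and 3 lower, and 3 of 24 muscle genes higher and 14 lower. Without both UV replicate 1 and starvation replicate 4, the hypodermis list had 6 higher and 4 lower. Germ line markers, which stand for the few germ cells of young larvae, summed to 11.69 to 11.81 after UV, against 11.48 to 11.55 in starvation, with 8 of 21 higher and 1 lower. The hypodermis list also holds cuticle genes such as mlt-11 and dpy-7, and the brightest genes weigh most in a summed signal.

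The growth machinery was higher after UV than in starvation across several complexes. Of 37 DNA replication genes, 36 were called higher and none lower (97.3% against 24.9% of all genes), with a median of 1.08. The large subunit of ribonucleotide reductase, rnr-1, which makes deoxynucleotides, had 10.43, 10.61 and 10.54 after UV, against 8.51, 8.32, 8.46 and 7.75 in starvation, and the difference was 2.27 ± 0.11 (adjusted p = 5.2e-18). The helicase subunit mcm-7 had 10.06, 10.31 and 10.24 after UV, against 8.29, 8.47, 8.37 and 7.65 in starvation, a difference of 2.01 ± 0.11, and the sliding clamp pcn-1 differed by 1.56 ± 0.11. Starvation replicate 4 was the lowest array for all 3 genes. Among 30 cell-cycle genes, 19 were higher and 5 lower, led by the mitotic kinase cdk-1 with 9.30, 9.62 and 9.62 after UV, against 7.31, 7.45, 7.33 and 7.09 in starvation. Its groups lay apart by 2.22 ± 0.08, and the cyclin cyb-3 differed by 2.15 ± 0.12. The inhibitor cki-1, which keeps precursor cells quiescent, ran the other way with 8.83, 9.01 and 8.90 after UV, against 9.21, 9.16, 9.19 and 9.53 in starvation, a difference of -0.36 ± 0.13 (adjusted p = 0.021). It was no longer called without starvation replicate 4 (-0.28), UV replicate 1 (-0.32) or UV replicate 3 (-0.35).

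Against untreated larvae, most replication genes were lower in both conditions, by different amounts. UV minus untreated had a median of -0.35, with 1 of 37 higher and 23 lower, and starvation minus untreated a median of -1.46, with 36 lower. For mcm-7 the differences were -0.54 ± 0.12 (adjusted p = 0.0017) after UV and -2.55 ± 0.11 (adjusted p = 4.1e-19) in starvation.

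Protein turnover and folding genes were higher as well. Of 33 proteasome subunits, 32 were called higher and 1 lower, with a median of 1.44. The alpha subunit pas-7 had 9.83, 10.06 and 10 after UV, against 7.06, 7.41, 7.14 and 7.06 in starvation, a 6.95-fold higher level (2.80 ± 0.11, adjusted p = 1.8e-20). The lone lower subunit was rpn-6.2, with 4.76, 4.48 and 4.70 after UV, against 5.13, 5.30, 5.56 and 5.58 in starvation and a difference of -0.75 ± 0.13. Of 21 chaperones and folding factors of the cytosol, mitochondria and endoplasmic reticulum, 17 were higher and 1 lower. The pdi-2 gene, a protein disulfide isomerase and subunit of the enzyme that hydroxylates collagen prolines, had 12.64, 12.76 and 12.72 after UV, against 9.498, 9.41, 9.44 and 9.56 in starvation, a difference of 3.23 ± 0.09 (adjusted p = 1.2e-24). The BiP homologs hsp-3 and hsp-4 differed by 2.39 ± 0.09 and 2.36 ± 0.14, and the mitochondrial chaperonin hsp-60 by 2.22 ± 0.09. The kinase pek-1, a sensor of unfolded proteins, was lower after UV by a difference of -0.89 ± 0.09. Against untreated larvae, 16 of the 33 proteasome subunits were lower after UV (median -0.22) and 32 in starvation (median -1.72).

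Translation genes split by class. Of 36 translation factors, 28 were higher and 5 lower (median 0.68), of 33 aminoacyl-tRNA synthetases 24 and 1 (median 0.39), and of 59 mitochondrial ribosomal proteins 41 and 7 (median 0.49). The asparaginyl-tRNA synthetase nars-1 had 10.77, 11.07 and 11.09 after UV, against 9.34, 9.26, 9.44 and 9.18 in starvation, a difference of 1.67 ± 0.12, and the alanyl-tRNA synthetase aars-2 differed by 1.60 ± 0.10. The mrps-11 gene, a mitochondrial ribosomal protein, went against its class with 10.50, 10 and 10.11 after UV, against 11.80, 11.84, 11.77 and 12.11 in starvation and a difference of -1.67 ± 0.10. The cytosolic ribosomal proteins barely differed: 5 of 75 were higher and 8 lower, with a median of -0.02 and rpl-41.1 as the largest at 0.91 ± 0.07. The lower count of these 75 was between 1 and 12 across the settings tried, and with arrays centred on their medians 9 were higher and 1 lower. Of 31 ribosome biogenesis genes, 16 were higher and 5 lower. The subunit-joining factor eif-6 differed by 1.51 ± 0.13, and the nucleolar GTPase nst-1 by -1.23 ± 0.10.

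Genes of the fasting response were among those furthest below starvation. The acs-2 gene, the acyl-CoA synthetase that feeds mitochondrial fatty acid oxidation, had 10.70, 8.14 and 8.12 after UV, against 12.99, 12.88, 12.84 and 12.51 in starvation. UV replicate 1 lay more than 2 log2 units above the other 2 UV arrays, and still below every starved array. The difference was -3.82 ± 0.46 (adjusted p = 1.3e-08), and without UV replicate 1 it was -4.68 (adjusted p = 3.3e-11). The lysosomal lipase lipl-3 showed the same array apart, with 7.70, 5.55 and 5.42 after UV, against 9.999, 10.20, 9.92 and 10.07 in starvation, a difference of -3.83 ± 0.29 and -4.57 without UV replicate 1. The icl-1 gene, the bifunctional glyoxylate cycle enzyme that lets larvae make sugar from fat, had 11.78, 10.19 and 9.96 after UV, against 13.67, 13.56, 13.67 and 13.65 in starvation, a difference of -2.99 ± 0.32. Untreated replicate 1 was likewise the highest untreated array for these genes (acs-2 read 8.32, 6.45 and 6.16). Against untreated larvae, acs-2 differed by 2.01 ± 0.50 after UV (adjusted p = 0.0044) and by 5.83 ± 0.46 in starvation (adjusted p = 8.9e-13).

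The other genes among the 15 largest falls mostly carry sequence names without a known role here. ZK669.3 had 5.46, 4.05 and 4.15 after UV, against 8.31, 8.35, 8.27 and 8.95 in starvation, the largest fall of any gene named here (-3.92 ± 0.22, adjusted p = 1.7e-16). Groups without overlap were a condition for entering the 15 largest falls, so that trait is no result for any of them. For ZK669.3, UV replicate 1 was again the highest UV array. C18H7.1 differed by -3.81 ± 0.48 and C23G10.11 by -3.73 ± 0.49, with -4.67 and -4.55 without UV replicate 1, and the carboxylesterase-family gene cest-29 by -3.39 ± 0.30 with -4.02 without it. F49E12.10, C27H5.6, F49H6.5, C16D9.9, F16C3.2, F21C10.10, ZC190.6 and F09F7.6 differed by values from -3.53 to -3.01. UV replicate 1 was the highest of the 3 UV arrays for each of these 8 genes as well.

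**Figure D3:**
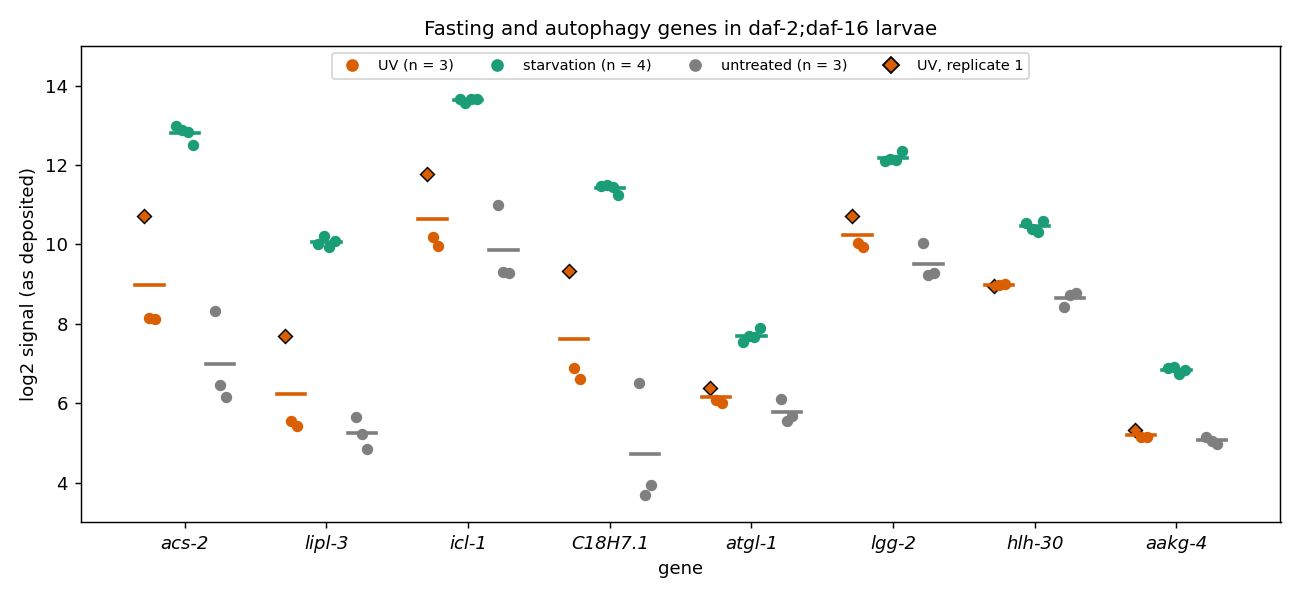
Log2 signal of 8 fasting and autophagy genes on each daf-2;daf-16 array (points, UV left, then starvation and untreated; bars are group means, and the diamond is UV replicate 1). Every starved array lies above every UV array for all 8, which was a condition of choice for those among the 15 largest falls. UV replicate 1 lies between the other UV arrays and the starved arrays for acs-2, lipl-3, icl-1 and C18H7.1.

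Autophagy genes were lower after UV than in starvation. Of 29 measured, 24 were called lower and 2 higher (82.8% lower against 28.8% of all genes), with a median of -0.81. The Atg8 homolog lgg-2, which coats the growing autophagosome, had 10.72, 10.03 and 9.93 after UV, against 12.10, 12.15, 12.11 and 12.36 in starvation, a difference of -1.95 ± 0.17 (adjusted p = 4.8e-12), and its relative lgg-1 differed by -1.199 ± 0.11. The hlh-30 gene, the TFEB homolog that turns on lysosome and autophagy genes, had 8.96, 8.98 and 9.0 after UV, against 10.53, 10.40, 10.32 and 10.58 in starvation. The UV arrays lay close together there, all below the starved arrays, and the difference was -1.48 ± 0.16. The atg-18 gene, a phosphoinositide-binding factor, and sqst-1, a cargo receptor, differed by -1.24 ± 0.10 and -0.72 ± 0.08, and bec-1, a subunit of the lipid kinase that starts the process, by 0.55 ± 0.07 in the other direction. Against untreated larvae, 6 of the 29 were higher after UV (median 0.01) and 23 in starvation (median 0.87).

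Energy sensors and regulators of the fasted state followed. Of 27 AMPK, TOR and fasting regulators, 19 were lower and 2 higher after UV, with a median of -0.52. The aakg-4 gene, a gamma subunit of AMP-activated kinase, had 5.33, 5.16 and 5.14 after UV, against 6.88, 6.90, 6.75 and 6.84 in starvation, a difference of -1.64 ± 0.12 (adjusted p = 2.7e-13). The catalytic subunit aak-2 differed by -1.01 ± 0.09 and the lipid-sensing receptor nhr-49 by -0.85 ± 0.11. The mxl-3 gene, a repressor of lysosomal lipolysis, read 9.46, 8.98 and 8.81 after UV, against 10.51, 10.46, 10.68 and 9.13 in starvation, so that starvation replicate 4 lay among the UV arrays and the groups overlapped; its difference was -1.11 ± 0.21 (adjusted p = 2.1e-05), and -1.47 without that array.

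Lipid enzymes went both ways. The fat-breaking lipase atgl-1 had 6.38, 6.08 and 6.01 after UV, against 7.55, 7.68, 7.66 and 7.88 in starvation, a difference of -1.54 ± 0.15, while fatty acid synthase, fasn-1, had 11.16, 11.34 and 11.16 after UV, against 9.87, 9.76, 9.85 and 9.89 in starvation, a difference of 1.38 ± 0.09. Those 2 genes lay apart between the conditions in opposite directions. A list of 54 genes for mitochondrial fatty acid oxidation took in whole families, such as acs, whatever the role of each member. Of these, 24 were higher and 14 lower after UV, from -3.82 for acs-2 to 4.64 for cpt-4, a carnitine palmitoyltransferase family member. The acdh-1 gene, an acyl-CoA dehydrogenase, was higher after UV by 1.91 ± 0.12. The peroxisomal acyl-CoA oxidase acox-1.1 differed by -1.26 ± 0.08, as one of 7 of 10 peroxisomal genes lower after UV. The delta-9 desaturases split, with fat-5 at -2.07 ± 0.18 and fat-7 at 1.25 ± 0.21. The tps-1 gene, which makes the stress sugar trehalose, differed by -0.89 ± 0.12.

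The insulin pathway itself was lower after UV than in starvation in most of its parts. Of 15 components, 12 were called lower and 1 higher, with a median of -0.34. The phosphoinositide 3-kinase age-1, which acts below the receptor, had 7.12, 7.36 and 6.89 after UV, against 7.83, 7.80, 7.87 and 8.04 in starvation, a difference of -0.76 ± 0.12. The smk-1 gene, a cofactor of DAF-16, differed by -1.07 ± 0.09. In UV against untreated larvae, 14 of the 15 were not called and 1 was lower (7.83% of all genes). In starvation against untreated larvae, 7 of the 15 were higher (28.3% of all genes). Insulin-like peptides, the candidate ligands, had 8 of 24 higher and 11 lower after UV than in starvation (24.9% and 28.8% of all genes). The ins-1 gene, which acts as an antagonist of the receptor, had 7.21, 6.91 and 6.79 after UV, against 8.78, 8.67, 8.80 and 9.15 in starvation, a difference of -1.88 ± 0.12. The agonist daf-28 had 6.18, 6.37 and 6.46 after UV, against 5.29, 5.36, 5.59 and 5.54 in starvation, a difference of 0.89 ± 0.12, and ins-33 differed by 2.68 ± 0.17. Agonist and antagonist thus lay on opposite sides without overlap between the conditions.

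Neuronal genes were lower after UV. Of 32 neuron markers, 25 were called lower and none higher, with a median of -1.01. Choline acetyltransferase, cha-1, had 7.27, 6.94 and 7.13 after UV, against 8.96, 8.98, 9.03 and 8.92 in starvation, a difference of -1.86 ± 0.10 (adjusted p = 4.9e-17). The vesicle-priming factor unc-13 differed by -1.73 ± 0.12, the GABA-synthesizing enzyme unc-25 by -1.77 ± 0.11 and the neuropeptide-processing carboxypeptidase egl-21 by -1.70 ± 0.10. Of 86 neuropeptide genes, 65 were lower and 10 higher, with a median of -1.43. The largest rise in this list (1.98) was also the largest among the epidermal antimicrobial peptides given below. The lists thus share members, and the 10 higher genes are not all neuronal. The nlp-9 gene read 9.22, 8.54 and 8.43 after UV, against 10.81, 11.11, 11.05 and 11.28 in starvation, a difference of -2.34 ± 0.16, and flp-10, a FMRFamide-like peptide gene, differed by -2.09 ± 0.15. Of 33 genes of sensory cilia, 30 were lower and none higher (median -0.74); the intraflagellar transport gene osm-5 had 5.86, 5.496 and 5.57 after UV, against 6.996, 7.20, 7.21 and 7.18 in starvation, a difference of -1.50 ± 0.12, and che-12 differed by -1.68 ± 0.14.

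In untreated larvae these genes lay nearer to the UV level. Neuropeptides had a median of 0.09 in UV against untreated larvae, with 13 of 86 higher and 2 lower, and a median of 1.49 in starvation against untreated larvae, with 67 higher and 9 lower. Of the 32 neuron markers, 9 were lower after UV than in untreated larvae, and 23 were higher in starvation. Chemoreceptors, which sensory neurons use to detect odours, had 63 of 1275 called higher after UV and 167 lower, both below the shares of all genes.

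Muscle, intestine and hormone genes differed gene by gene. The pharyngeal myosin myo-2 had 9.77, 9.35 and 9.31 after UV, against 10.77, 10.67, 10.80 and 10.75 in starvation, a difference of -1.27 ± 0.11, and the body-wall myosin unc-54 differed by -0.55 ± 0.12, although starvation replicate 4 (10.84) fell within the UV range for it and the difference without that array was -0.71. The basement membrane perlecan unc-52 was higher after UV by 1.15 ± 0.09. Intestinal actin, act-5, had 12.604, 12.82 and 12.78 after UV, against 11.32, 11.30, 11.11 and 10.61 in starvation, a difference of 1.65 ± 0.10, and the peptide transporter pept-1, which takes up digested protein, differed by 1.17 ± 0.07. The gut fate factor elt-2 had 7.78, 7.82 and 7.98 after UV, against 7.68, 7.66, 7.72 and 7.81 in starvation, a difference of 0.14 ± 0.09 that was not called (adjusted p = 0.21), whereas elt-7, its partner, and the gut esterase ges-1 were lower after UV by differences of -0.66 ± 0.09 and -0.95 ± 0.10. The dauer pathways included daf-7, the TGF-beta ligand made by sensory neurons, with 8.06, 7.89 and 7.95 after UV, against 9.03, 9.15, 9.18 and 9.37 in starvation and a difference of -1.22 ± 0.11. Of 14 genes of the dauer TGF-beta and steroid pathways, 10 were called lower after UV and 2 higher, with a median of -0.52. The 2 higher ones, daf-36 (1.87 ± 0.14) and dhs-16 (2.51 ± 0.22), encode enzymes of the synthesis of dafachronic acids, steroid hormones that favour reproductive growth.

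Nuclear hormone receptors, a large family in worms, were mostly lower after UV: 145 of 254 were called lower and 24 higher, with a median of -0.43. The nhr-21 gene was the lowest with 8.87, 7.39 and 7.29 after UV, against 10.79, 10.78, 10.58 and 10.26 in starvation, a difference of -2.75 ± 0.25, and UV replicate 1 was again the highest UV array. Against untreated larvae, 28 receptors were higher and 6 lower after UV, and 154 higher and 19 lower in starvation.

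Many defence genes were higher after UV than in both starved and untreated larvae. Of 21 genes of the infection response (irg) and of the downstream-of-DAF-16 (dod) and related series, 16 were called higher after UV than in starvation and 3 lower, with a median of 1.16. The irg-5 gene had 10.29, 10.12 and 10.83 after UV, against 5.05, 5.04, 5.20 and 4.88 in starvation, a 41.5-fold higher level (5.38 ± 0.22, adjusted p = 1.0e-19). Untreated arrays read 6.47, 5.31 and 4.86, and UV minus untreated was 4.87 ± 0.24 (adjusted p = 3.3e-16), against -0.51 ± 0.22 for starvation minus untreated (adjusted p = 0.053). Over the 21 genes, UV against untreated larvae had 15 higher and none lower (median 1.03), and starvation against untreated larvae 6 higher and 9 lower (median -0.21). The genes irg-3 and dod-3 were lower after UV than in starvation, by differences of -1.03 ± 0.09 and -1.22 ± 0.25.

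Several of these genes differed most among the starved arrays. The dod-24 gene, a CUB-like secreted protein of the innate response, had 11.99, 12.03 and 12.01 after UV, against 8.27, 8.40, 8.28 and 6.02 in starvation, with starvation replicate 4 more than 2 log2 units below the other starved arrays. Its difference was 4.26 ± 0.30 (adjusted p = 6.2e-14). The dod-22 gene had 8.87, 8.95 and 9.49 after UV, against 7.26, 7.29, 7.40 and 5.69 in starvation, a difference of 2.19 ± 0.25, and was higher than untreated in both conditions, by 3.94 ± 0.27 after UV and 1.75 ± 0.25 in starvation. The dod-19 gene differed by 3.20 ± 0.16. The lysozyme lys-7 had 10.73, 10.80 and 10.97 after UV, against 6.99, 7.13, 6.72 and 6.05 in starvation, a difference of 4.11 ± 0.27, and lys-2 differed by 3.69 ± 0.14. Starvation replicate 4 was the lowest starved array for all 5 of these genes, and without it the differences of dod-24, dod-22 and lys-7 were 3.69, 1.79 and 3.89. Lysozymes and saposin-like genes as a whole had 14 of 34 higher (24.9% of all genes) and 10 lower, the latter near the share of all genes (28.8%), with a median of 0.11.

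**Figure D4:**
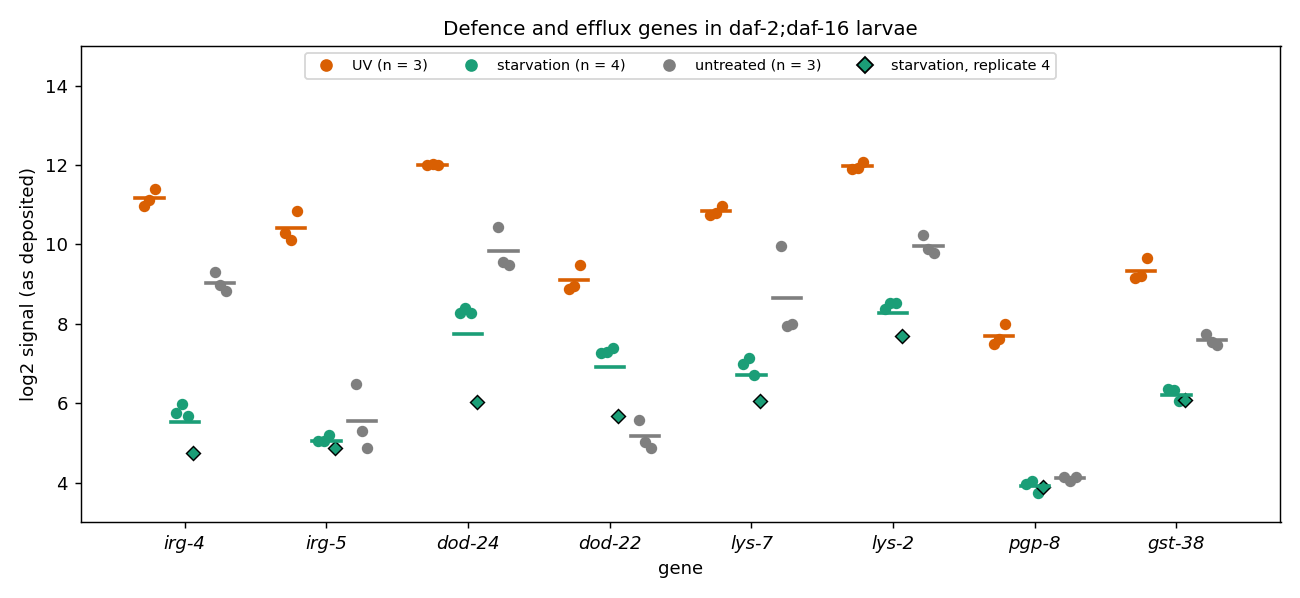
Log2 signal of 8 defence and efflux genes on each daf-2;daf-16 array (points, UV left, then starvation and untreated; bars are group means, and the diamond is starvation replicate 4). All UV arrays lie above all starved arrays for each gene, which was a condition of choice for any among the 15 largest rises. For irg-5, dod-22 and pgp-8 all UV arrays also lie at least 2 log2 units above all untreated arrays.

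Detoxification and barrier genes added to this. The P-glycoprotein pgp-8, an efflux pump, had 7.49, 7.63 and 7.98 after UV, against 3.96, 4.03, 3.73 and 3.90 in starvation, a difference of 3.80 ± 0.16, and differed from untreated larvae by 3.60 ± 0.17 after UV (adjusted p = 1.8e-16) but by -0.20 ± 0.16 in starvation (adjusted p = 0.29). Of 45 glutathione S-transferases, which couple toxins to glutathione, 23 were higher and 7 lower. The gst-38 gene had 9.15, 9.21 and 9.65 after UV, against 6.37, 6.34, 6.06 and 6.08 in starvation, a difference of 3.12 ± 0.17. The gst-4 gene, a target of the oxidative stress factor SKN-1, differed by 1.89 ± 0.13, and gst-10, active on lipid peroxidation products, by 3.71 ± 0.14. Of 64 glucuronosyltransferases, 32 were higher and 16 lower, led by ugt-57 at 4.42 ± 0.13. Cytochrome P450 genes were close to balance, with 20 of 73 higher and 24 lower, near the shares of all genes (24.9% and 28.8%). Of 220 C-type lectins, 49 were higher and 27 lower, both shares below those of all genes, with clec-180 at 4.81 ± 0.30 and clec-3 at 2.83 ± 0.18. The epidermal antimicrobial peptides, secreted under the cuticle, had 13 of 24 higher and 1 lower, and nlp-29 had 8.41, 8.45 and 8.34 after UV, against 6.49, 6.50, 6.59 and 6.91 in starvation. Its groups lay apart by 1.78 ± 0.15, although 16 of these 24 genes rest on shared probe sets. The intracellular pathogen response genes pals-6 and pals-31 ran opposite ways, at 1.45 ± 0.17 and -2.11 ± 0.15.

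A rule on the smaller of the 2 differences from untreated larvae picked genes that were called in opposite directions by the treatments. The genes irg-4, dod-24, lys-7, clc-11 and F55G11.2 were above untreated after UV and below it in starvation. The irg-4 gene had 10.98, 11.12 and 11.38 after UV, against 5.75, 5.98, 5.68 and 4.74 in starvation, and untreated arrays, at 9.31, 8.98 and 8.83, lay between the groups. Its differences from untreated were 2.12 ± 0.20 after UV and -3.50 ± 0.19 in starvation, and UV minus starvation was 5.62 ± 0.19. For clc-11, a claudin-like membrane protein, the same 3 values were 1.84 ± 0.18, -2.07 ± 0.17 and 3.92 ± 0.17, and for F55G11.2, 1.71 ± 0.17, -2.25 ± 0.16 and 3.96 ± 0.16. The 5 genes named by the same rule as below untreated after UV and above it in starvation were the calcium channel unc-2, the glutamate receptors glr-5 and mgl-1, the ligand-gated channel gene lgc-56 and the mitochondrial helicase twnk-1. The unc-2 gene had 6.64, 6.18 and 6.01 after UV, against 8.23, 8.02, 7.91 and 8.17 in starvation, with untreated arrays in between at 7.17, 6.97 and 7.001. Its differences from untreated were -0.77 ± 0.16 and 1.04 ± 0.15, and for mgl-1 they were -0.75 ± 0.13 after UV and 1.13 ± 0.12 in starvation.

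Other genes were moved alike by both treatments and were not called between them. C50F7.5, scl-2, col-39, ifas-2 and pho-8 were above untreated in both conditions. The scl-2 gene, of the secreted SCP/TAPS family, had 10.15, 10.15 and 10.48 after UV, against 9.84, 9.98, 10.02 and 9.56 in starvation, and the difference of 0.41 ± 0.20 was not called (adjusted p = 0.082). Untreated arrays read 8.14, 6.80 and 6.997, lower than all 7. For col-39, UV minus untreated was 2.49 ± 0.22 and starvation minus untreated 2.59 ± 0.20, and for C50F7.5 they were 3.34 ± 0.36 and 3.60 ± 0.34. The genes nhr-235, Y38H6C.8, clec-61, C09B8.4 and taco-1 were below untreated in both. The nhr-235 gene had 4.59, 4.49 and 4.53 after UV, against 4.40, 4.21, 4.26 and 4.22 in starvation, a difference of 0.27 ± 0.20 (adjusted p = 0.29), and untreated arrays read 4.88, 6.41 and 6.37. Untreated replicate 1 lay far from the other 2 for nhr-235, Y38H6C.8 and clec-61, so their difference from untreated rests mainly on replicates 2 and 3. Because these sets were picked by their calls, their directions are a description and not a test.

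DNA repair and checkpoint genes were mixed between UV and starvation. Of 20 nucleotide excision repair genes, 7 were called higher and 3 lower (24.9% and 28.8% of all genes), with a median of 0.06. The damage-binding scaffold xpa-1 had 6.31, 6.16 and 6.03 after UV, against 5.81, 5.64, 5.81 and 5.86 in starvation, a difference of 0.39 ± 0.11 (adjusted p = 0.0025). The transcription-coupled repair factor csb-1 had 7.84, 7.97 and 8.06 after UV, against 7.84, 7.73, 7.98 and 7.68 in starvation, with overlapping groups and a difference of 0.15 ± 0.09 that was not called (adjusted p = 0.16). The nuclease subunit ercc-1 had 7.03, 6.83 and 6.57 after UV, against 7.99, 7.90, 8.01 and 8.21 in starvation, lower after UV by a difference of -1.22 ± 0.10, and the nuclease xpg-1 differed by -0.73 ± 0.11. The rad-23 gene, a ubiquitin receptor that also serves the proteasome, was higher by 1.27 ± 0.08. In UV against untreated larvae, 2 of the 20 were higher and 3 lower (7.61% and 7.83% of all genes).

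Of 21 checkpoint and apoptosis genes, 3 were higher and 3 lower (median -0.03), 14.3% in each direction, below the shares of all genes. The p53 homolog cep-1 had 6.91, 6.88 and 6.68 after UV, against 7.09, 7.02, 7.09 and 6.99 in starvation, a difference of -0.22 ± 0.09 (adjusted p = 0.033). It was no longer called without UV replicate 3 (-0.15), without starvation replicate 1 (-0.21) or with arrays centred on their medians (-0.19). Its apoptosis target egl-1 had 5.34, 5.09 and 5.32 after UV, against 5.24, 5.30, 5.16 and 5.45 in starvation, with overlapping groups (adjusted p = 0.79). The checkpoint kinase chk-1 was higher after UV by 0.92 ± 0.11 and its upstream kinase atl-1, the ATR homolog, by 0.25 ± 0.09. Of 25 genes of recombination, mismatch and base repair and translesion synthesis, 13 were higher and 3 lower; rad-51, the strand-exchange recombinase, had 8.21, 8.47 and 8.37 after UV, against 6.78, 6.91, 6.80 and 6.69 in starvation, a difference of 1.55 ± 0.08. Without probe sets marked as shared, 8 of the 25 were measured and 1 of them was called higher.

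DAF-16 targets known from adult worms had no common direction in these daf-16 mutant larvae. Of 22 genes that DAF-16 activates, 8 were higher (36.4%, against 24.9% of all genes) and 10 lower (45.5%, against 28.8%) after UV than in starvation, with a median of -0.20. The superoxide dismutase sod-3, a standard reporter of DAF-16 activity, had 5.47, 5.61 and 5.66 after UV, against 4.43, 4.68, 4.37 and 4.37 in starvation, a difference of 1.12 ± 0.12 (adjusted p = 1.1e-09). The metallothionein mtl-1 had 4.33, 3.85 and 3.67 after UV, against 4.59, 4.50, 4.59 and 4.47 in starvation, with a difference of -0.59 ± 0.19 (adjusted p = 0.0083). Of 11 genes that DAF-16 represses, 8 were higher and 1 lower (24.9% and 28.8% of all genes), with a median of 1.08. The genes dod-19, dod-22 and dod-24 are among the 11. The extracellular superoxide dismutase sod-4, which is not in either list, had 8.41, 7.95 and 8.13 after UV, against 9.82, 9.83, 9.76 and 10.18 in starvation, a difference of -1.74 ± 0.12.

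The difference between UV and starvation was then set against the same difference in the other strains, as a difference of differences in the same limma model. Against daf-16 larvae, 2 of 17118 genes were called (0.0117%), both higher in the double mutant, and 7.78% of genes had an unadjusted p under 0.05. The oac-32 gene, of the O-acyltransferase-like family, had UV minus starvation differences of 2.13 in daf-2;daf-16 and 1.08 in daf-16 (difference 1.05 ± 0.18, adjusted p = 0.019), and F55C5.6 -0.24 and -1.13 (difference 0.90 ± 0.15). The count was 26 without daf-16 UV replicate 3 and 15 without daf-2;daf-16 starvation replicate 4, and it was 0 without daf-16 starvation replicate 2, without daf-16 UV replicate 1 or without daf-2;daf-16 UV replicate 3. The 95% interval of the strain difference had a median margin of ± 0.34 log2 units and lay within 1 log2 unit of 0 for 96.4% of genes, so for most genes a strain difference of more than 1 log2 unit lies outside the interval. For sym-1 the interval was -1.09 to 0.23, for lipl-3 -0.23 to 1.59, for acs-2 0.40 to 3.35 (adjusted p = 0.52), for irg-5 -0.04 to 1.36 and for mcm-7 -0.32 to 0.40.

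Against daf-2 larvae, whose labels name no daf-16 mutation, 969 genes were called higher (5.66%) and 1535 lower (8.97%). In probe sets, the count of 3048 was 4722 with array weights and 1839 without shared probe sets. Matrix genes and collagens were among the largest of these differences. Of the 34 matrix and molting genes, 23 had a higher UV minus starvation difference in the double mutant than in daf-2 and none a lower one, and all 5 furrow collagens were higher. The median UV minus starvation difference of the 34 was 3.03 in daf-2;daf-16 and 0.45 in daf-2, and of the furrow collagens 4.89 and 0.86. The sqt-1 gene had 5.80 in daf-2;daf-16 and 0.41 in daf-2, a strain difference of 5.38 ± 0.62 (adjusted p = 1.2e-07). The genes dpy-5, ZK1025.3, T26C5.2 and Y102A11A.5 had strain differences of 5.09 ± 0.62, 5.47 ± 0.77, 5.07 ± 0.60 and 5.05 ± 0.55. The sym-1 gene had 7.15 and 4.21 (adjusted p = 1.6e-08), mlt-11 6.78 and 2.61, dpy-7 5.41 and 1.90, and nhr-23 3.04 and 2.35 (adjusted p = 0.004).

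The means behind these values show in which of the 2 conditions the strains lay further apart. The sqt-1 gene averaged 10.54 after UV, against 4.74 in starvation, in the double mutant, and 5.51 after UV, against 5.10 in starvation, in daf-2. The sym-1 gene averaged 11.35 after UV, against 4.20 in starvation, in the double mutant, and 8.67 after UV, against 4.46 in starvation, in daf-2. The starved means of the strains lay closer together than their UV means for both genes. Untreated daf-2 means are not given here, and whether the strains already differed without treatment was not tested. Replication genes followed, with 22 of 37 higher and none lower in this strain comparison; mcm-7 had 2.01 in daf-2;daf-16 and 0.86 in daf-2 (adjusted p = 6.1e-06). Of 254 nuclear receptors, 73 were lower and 5 higher.

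In the other direction, C27H5.6, F49H6.5, K10D11.2, F55G11.3 and cest-29 had the largest negative strain differences against daf-2. C27H5.6 had -3.52 in daf-2;daf-16 and -0.40 in daf-2 (difference -3.12 ± 0.28, adjusted p = 1.1e-09), F49H6.5 -3.20 and -0.23, K10D11.2 -2.38 and 0.40, cest-29 -3.39 and -0.74, and F55G11.3 0.46 and 3.23. The fasting genes named above were not called between these strains: acs-2 had -3.82 and -3.80 (interval of the difference -1.41 to 1.36), lipl-3 -3.83 and -3.65 (-1.03 to 0.68), and icl-1 -2.99 and -2.34 (-1.60 to 0.30). Among the defence genes, pgp-8, irg-5 and dod-24 were not called either, with intervals of -0.82 to 0.11, -0.03 to 1.29 and -0.86 to 0.93, while lys-7 was higher in the double mutant by 1.78 ± 0.39 (adjusted p = 0.0017) and irg-4 lower by a difference of -1.23 ± 0.27 (adjusted p = 0.0018).

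**Figure D5:**
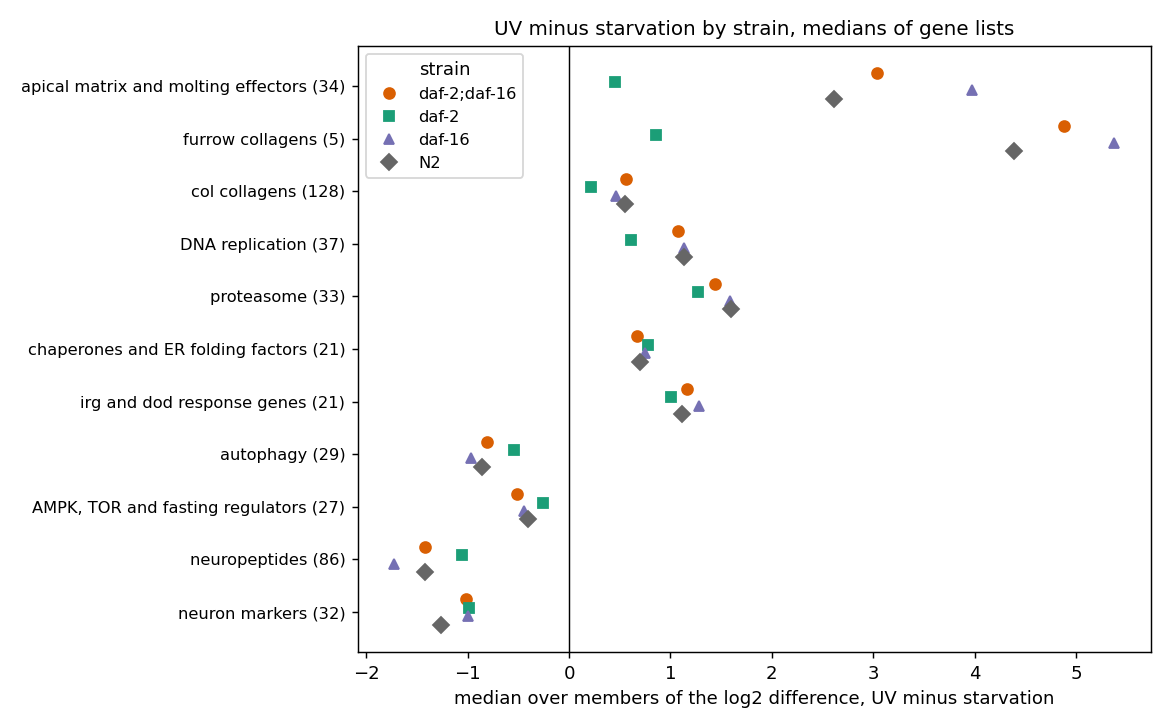
Median over the measured members of 11 gene lists (numbers in brackets) of the log2 difference UV minus starvation in daf-2;daf-16 (circles), daf-2 (squares), daf-16 (triangles) and N2 (diamonds). The matrix genes and furrow collagens lie between 2 and 6 log2 units in 3 strains but at 0.45 and 0.86 in daf-2, and the other lists lie closer together.

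Against N2 larvae, 606 genes were called higher (3.54%) and 465 lower (2.72%). In probe sets, the count of 1297 was 4322 with array weights and 771 without shared probe sets. Targets of DAF-16 were among them. The sod-3 gene had a UV minus starvation difference of 1.12 in daf-2;daf-16 and -1.58 in N2, a strain difference of 2.70 ± 0.18 (adjusted p = 3.1e-12). Its mean signals were 5.58 after UV, against 4.46 in starvation, in the double mutant, and 6.12 after UV, against 7.70 in starvation, in N2. The mtl-1 gene had -0.59 and -1.65 (adjusted p = 0.015) and gst-4 1.89 and 0.41 (adjusted p = 2.0e-06). Of the 22 DAF-16-activated genes, 10 had a higher difference in the double mutant than in N2 and none a lower one, and their median UV minus starvation difference was -0.20 in daf-2;daf-16 and -0.75 in N2. That list was chosen with results of these arrays known and is no independent evidence of its direction.

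The largest differences from N2 were mostly genes without a settled role. The chil-28 gene, a chitinase-like gene, had 0.09 in daf-2;daf-16 and -3.26 in N2 (strain difference 3.35 ± 0.23, adjusted p = 6.4e-12), and F45D11.1 1.55 and -1.66. The genes clec-61 and mboa-1 were higher in the double mutant by 2.51 ± 0.47 and 2.34 ± 0.52. C27H5.6, C32H11.4, F07E5.9, C40H1.7 and spl-2 had negative strain differences, from -3.52 in daf-2;daf-16 and -1.17 in N2 for C27H5.6 to -0.31 and 1.39 for spl-2, a sphingosine-phosphate lyase gene. C32H11.4 and C40H1.7 had 0.40 and -0.63 in daf-2;daf-16, and 2.44 and 1.15 in N2. Of the matrix genes, 1 of 34 was higher in the double mutant than in N2 and none lower, and sym-1 had 7.15 and 6.73 (interval of the difference -0.20 to 1.04).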

How the data were processed

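RNA of whole larvae was measured on the Affymetrix C. elegans Genome Array. Per the submitters' processing notes the authors used Affymetrix Power Tools. The deposited values are log2 signals and were taken unchanged; no source at hand names their summarisation method or the tool's version. Of 22625 probe sets, 77 controls were left out and 22548 were tested. A symbol was taken from the platform annotation, which gave 1 symbol to 20766 probe sets, several to 887 and none to 895, so that the brightest probe set stood for each of 17118 genes. One limma 3.58.1 model in R 4.3.3 (lmFit, eBayes with an intensity trend) covered all 12 groups with 24 residual degrees of freedom, with Benjamini-Hochberg adjustment over 22548 probe sets. The spread was thus shared with arrays of the other strains. Depth has no counterpart on arrays, so the number of arrays sets the precision, and no probe set's level was compared with another's. Where other probe sets of a named gene were called, none was called in the opposite direction.

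Genes named by rule were the 15 largest called rises and falls with no overlap between the groups, 5 for each combination of calls against untreated larvae and 5 for each direction of each strain difference; other names are list members chosen with values known. The gene lists and the comparison itself were chosen with earlier results of these data known. In 3 lists members were corrected after the values were seen: the chemoreceptor names, hlh-4 among intestine markers and polg-1 among replication genes. Same-numbered UV and starvation arrays correlated at -0.04, 0.01 and 0.01, so the numbers were not taken to pair samples. The fit was tested on simulated data. Alternatives were quantile normalization, median centring, no trend, array weights, only the groups compared, a replicate block, 1 probe set per gene, leaving out dim probe sets, shared ones or each array in turn.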

Additional observations from a re-analysis of the deposited data

Results flagged for a closer look

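Dixon's test sets the gap between an array and its nearest neighbour against the range of all 4 starved daf-2;daf-16 arrays. It flagged 1 array for 18 of the 169 genes named in the text, where chance gives about 8. The range ran from 0.135 log2 units for tps-1 to 2.38 for dod-24, so some flagged gaps were small. In 16 of the 18 the array was starvation replicate 4. That array was above the other starved arrays for C27H5.6 (8.39), F07E5.9 (6.9), ZK669.3 (8.95), cki-1 (9.53), clec-61 (6.09), nekl-2 (8.38) and tps-1 (10.14). It was below them for cest-29 (7.45), dod-22 (5.69), dod-24 (6.02), lys-2 (7.7), mxl-3 (9.13), unc-54 (10.84), col-39 (8.23), cyb-3 (6.81) and myrf-1 (6.17). In starvation replicate 1 osm-5 was flagged (7.0, range 0.215), and in starvation replicate 2 mgl-1 was (7.62, range 0.144).

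The difference between UV and starvation departed from that of daf-2 larvae, by the fitted strain difference, for matrix and collagen genes among others. Those strain differences, daf-2;daf-16 minus daf-2, were 5.47 for ZK1025.3, 5.38 for sqt-1, 5.09 for dpy-5, 5.07 for T26C5.2, 5.05 for Y102A11A.5, 4.17 for mlt-11, 3.50 for dpy-7, 2.94 for sym-1 and 0.69 for nhr-23. They were 1.78 for lys-7, 1.14 for mcm-7 and 0.79 for gst-4, and negative for C27H5.6 (-3.12), F49H6.5 (-2.97), K10D11.2 (-2.79), F55G11.3 (-2.77), cest-29 (-2.64), irg-4 (-1.23) and mtl-1 (-1.18). Of the 169 genes named in the text, 92 were called in that comparison.

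Against N2 larvae the strain differences were 3.35 for chil-28, 3.22 for F45D11.1, 2.70 for sod-3, 2.51 for clec-61, 2.34 for mboa-1, 1.63 for lys-7, 1.49 for gst-4 and 1.06 for mtl-1. They were -2.35 for C27H5.6, -2.04 for C32H11.4, -1.99 for F07E5.9, -1.77 for C40H1.7 and -1.70 for spl-2. Against daf-16 larvae they were 1.05 for oac-32 and 0.90 for F55C5.6. Of the 169 named genes, 31 were called against N2 and 2 against daf-16.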

How the results depend on the processing

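The count of probe sets called between UV and starvation, 11839, was 7558 without probe sets shared between transcripts, where fewer were tested, and 10703 to 11439 when single arrays were left out. With arrays centred on their medians 51% of calls were higher, against 46.1% before. Without shared probe sets 771 were called against N2, 1839 against daf-2, 1865 for UV against untreated and 7892 for starvation against untreated. Array weights gave 4322 against N2 (1297 before), 39 against daf-16 (2 before), 4722 against daf-2 (3048 before) and 5477 for UV against untreated (3293 before). The fit of only the groups compared gave 1715 for UV against untreated and 1 against daf-16, which was also 1 without the dimmest probe sets and 9 without both UV replicate 1 and starvation replicate 4, an alternative chosen after seeing the data. The cause of these shifts was not tested. Leaving out single arrays gave 870 to 1889 against N2, 0 to 26 against daf-16, 2342 to 3234 against daf-2, 2366 to 3363 for UV against untreated and 11297 to 11910 for starvation against untreated. With the replicate number as a block, which sets starvation replicate 4 aside, 11194 probe sets were called between UV and starvation and 19 against daf-16; same-numbered arrays did not deviate together. Of 2804 values of named genes under these alternatives, 2765 kept direction and call, 26 lost the call, 13 gained it and none reversed.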

Other observations

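Further gene groups were compared between UV and starvation in daf-2;daf-16 larvae, and those for a proton pump and actin and tubulin folding were mostly higher after UV. The pump acidifies lysosomes, but its list, the vha family and unc-32, was not limited to subunits found there. Of its 19 subunits, 13 were called higher after UV and 1 lower (median 0.41), although 15 of the 19 rest on shared probe sets. Of 8 subunits of the CCT chaperonin, which folds actin and tubulin, 7 were higher and none lower (median 0.52). Of 48 genes of the tricarboxylic acid cycle and respiratory chain, 13 were higher and 23 lower (median -0.12), and in starvation against untreated larvae 23 of them were higher and 12 lower. Of 31 histone genes, 15 were higher and 5 lower after UV than in starvation (median 0.26).

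Glycolysis genes had 4 of 16 higher and 4 lower, near the shares of all genes (24.9% and 28.8%). Small heat shock proteins had 4 of 12 in each direction (33.3%). Lipases and lipid-binding proteins had 14 of 38 in each direction (36.8%), and desaturases and elongases 10 of 22 in each (45.5%), above both shares of all genes. F-box genes, adaptors of ubiquitin ligases, had 40 of 310 higher and 61 lower, both below the shares of all genes (24.9% and 28.8%). Against untreated larvae, F-box genes had 39 higher and 1 lower after UV (7.61% and 7.83% of all genes). In starvation they had 77 higher and 38 lower, both below the shares of all genes (28.3% and 27%). Of 11 EGL-27 and GATA factor genes, 3 were higher and 4 lower after UV than in starvation (24.9% and 28.8% of all genes). Without both UV replicate 1 and starvation replicate 4, none of them was higher and 4 were lower.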
